A study of Mus musculus with 3 samples.

Results

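Hearts of mice with the Prkag2-p.R299Q mutation were set directly against those of mice with the Myh6-R404Q mutation, cell class by cell class. All 7951 barcodes of the Prkag2-p.R299Q matrix were taken on one side and the 12662 barcodes of suffix 3 in the Myh6-R404Q matrix on the other. These 20613 barcodes are part of the 38646 in the series, the remaining 18033 being from the WT library. The other barcodes of the Myh6-R404Q matrix, of suffixes 1 and 2, repeat the Prkag2-p.R299Q and WT matrices with 0 entries that differ and were left out. All 3 groups were male C57/B6J mice, and their hearts were dissociated with collagenase and captured as total cells for 3-prime single-cell RNA sequencing. The labels name neither the ages of the animals nor their number per library, nor the zygosity of the mutations. With 1 library per genotype there is no replicate check, so no test was made: every interval is an exact 95% interval that covers counting error only, and a difference between the libraries cannot be told apart from a difference between animals, digestions or collection times.

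Both mutations are models of cardiomyopathy but act on different machines. Myh6 encodes the alpha myosin heavy chain, the motor of the adult mouse sarcomere, and the arginine at issue lies in the motor domain that meets actin. Prkag2 encodes a regulatory gamma subunit of AMP-activated protein kinase (AMPK), which senses the energy state of the cell through bound nucleotides and directs fuel use, and mutations in it are known for glycogen storage in heart muscle. The codons concerned are shown from the GENCODE vM21 reference transcripts on mm10, with the arginine codon in capitals. They are shown because genotype is the difference between the groups that the labels name.
Myh6, codon of R404Q: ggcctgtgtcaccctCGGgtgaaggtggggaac
Prkag2, codon of R299Q: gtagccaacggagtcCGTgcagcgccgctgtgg
The first is in exon 13 of 39 of Myh6, at chr14:54960468-54960470 on the minus strand. The second is in exon 7 of 16 of the Prkag2 transcript that encodes 566 residues, at chr5:24880724-24880726, also on the minus strand. Counts from the 3-prime end do not read either codon, so the levels of these genes do not check the labels. In cardiomyocyte-like cells Prkag2 stood at 69.9 CPM (counts per 1000000 UMIs of the class) in Prkag2-p.R299Q, 70.4 CPM in Myh6-R404Q and 67.0 CPM in WT. Myh6 stood at 14250, 12390 and 12850 CPM.

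The libraries held 31385005 UMIs in Prkag2-p.R299Q, 38251499 in Myh6-R404Q and 41047991 in WT, and the median barcode had 2537, 2043 and 1559 UMIs. The Prkag2-p.R299Q and Myh6-R404Q libraries shared 34 barcode strings, of which 0 had identical counts. After removal of called doublets 6839, 10498 and 14851 cells were kept and fell into 22 clusters and 14 classes, named "-like" from marker genes. Malat1, an RNA retained in nuclei, stood at 58979 CPM over all kept cells of Prkag2-p.R299Q, 42443 CPM in Myh6-R404Q and 43013 CPM in WT. The 8 classes compared gene by gene each had at least 200 kept cells in both mutant libraries. Their own markers were highest in the named class of both mutant libraries for 9 of 9 genes in macrophage-like cells, 8 of 8 in mesothelial-like and pericyte-like cells, 6 of 6 in endocardial-like cells, 8 of 9 in fibroblast-like cells, 7 of 9 in endothelial-like cells, 6 of 9 in cardiomyocyte-like cells and 5 of 6 in lymphatic endothelial-like cells. The muscle markers Myl2 and Actc1 were higher in endothelial-like than in cardiomyocyte-like cells of both mutants. In Prkag2-p.R299Q and Myh6-R404Q Myl2 stood at 1888 and 2855 CPM against 1327 and 1864 CPM. Actc1 stood at 1572 and 1389 CPM against 1382 and 1058 CPM.

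The Prkag2-p.R299Q library held larger shares of muscle cells, fibroblasts and macrophages, and smaller shares of vascular lining, endocardial and surface cells. Cardiomyocyte-like cells made up 16.6% of kept cells in Prkag2-p.R299Q, 12.5% in Myh6-R404Q and 14.6% in WT, a ratio between the mutants of 1.33 (1.24 to 1.43). Fibroblast-like cells made up 32.6%, 27.4% and 29.0%, with a ratio of 1.19. Macrophage-like cells were at 12.1%, 8.79% and 10.4%, with a ratio of 1.37 (1.26 to 1.5). For these 3 classes the WT share lay between those of the mutants. Endothelial-like cells were at 15.3% in Prkag2-p.R299Q against 20.4% in Myh6-R404Q and 22.7% in WT, a ratio of 0.748. Endocardial-like cells, which line the chambers, were at 3.30%, 6.34% and 3.49%, so that the Prkag2-p.R299Q and WT shares overlapped in their intervals and Myh6-R404Q stood above both. Mesothelial-like cells, from the outer surface of the heart, were at 8.47%, 13% and 5.36%. The ratio between the mutants was 0.521 (0.449 to 0.604) for endocardial-like cells and 0.652 (0.595 to 0.715) for mesothelial-like cells. Pericyte-like cells had a ratio of 1.18 (1.03 to 1.36), and the interval for lymphatic endothelial-like cells, 0.967 to 1.31, included equal shares. Smooth muscle-like cells numbered 21 in Prkag2-p.R299Q, 57 in Myh6-R404Q and 201 in WT, or 0.307%, 0.543% and 1.35% of kept cells. Their ratio between the mutants was 0.566 (0.343 to 0.932), with both mutants below WT. Cycling cells numbered 20, 58 and 7, or 0.292%, 0.552% and 0.0471%. Their ratio was 0.529 (0.319 to 0.879), with both mutants above WT. Digestion and capture set such shares as well as the tissue does, and their part was not tested.

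**Figure D1:**
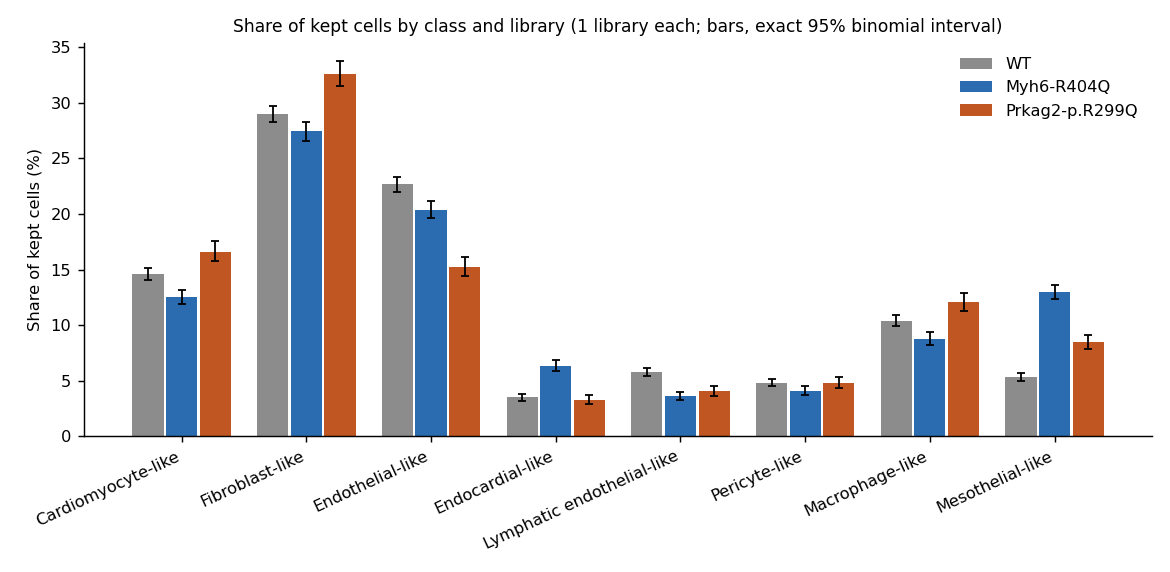
Share of kept cells (%, vertical axis) in each of the 8 compared classes for the WT, Myh6-R404Q and Prkag2-p.R299Q libraries, 1 library each, with exact 95% binomial intervals as error bars. Cardiomyocyte-like, fibroblast-like and macrophage-like shares are highest in Prkag2-p.R299Q, while the endocardial-like and mesothelial-like shares are highest in Myh6-R404Q.

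In cardiomyocyte-like cells Nppa and Acta1 were higher in Prkag2-p.R299Q, and Pdk4, Txnip and the genes of fatty acid use were lower. A gene was counted as past 2-fold when the ratio was at least 2, 1 library reached 50 CPM and the interval lay wholly beyond 1.5-fold. By this rule 7 of 3490 measured genes (0.201%) were higher and 37 (1.06%) lower in Prkag2-p.R299Q. The median log2 ratio of all 9121 genes at 10 CPM or more was -0.13 in this class, so small list medians below 0 sit near the general level. With the median of the measured genes set to 0, 10 genes were higher and 30 lower.

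Nppa, which encodes atrial natriuretic peptide, stood at 125 CPM in Prkag2-p.R299Q, 23.9 CPM in Myh6-R404Q and 23.2 CPM in WT. The Prkag2-p.R299Q value was 5.25-fold (4.48 to 6.18) that of Myh6-R404Q, whose value overlapped WT. Acta1, skeletal alpha actin of the fetal heart programme, was at 99.2, 40.7 and 64.0 CPM, 2.44-fold (2.14 to 2.79) higher in Prkag2-p.R299Q, with WT between the mutants. Of 16 measured genes of the stress and fetal list 11 were higher and 5 lower, with a median log2 ratio of 0.18 (0.07 to 0.45 under the alternatives). Only Nppa and Acta1 among them were past 1.5-fold higher, where 1.33% of all genes were, and Ccn2 was past 1.5-fold lower. Ankrd1, a titin-binding stress protein, stood at 521, 350 and 317 CPM. Nppb, which encodes brain natriuretic peptide, stood at 102, 74.8 and 61.5 CPM, and Myh7, the beta myosin heavy chain, at 1807, 1319 and 1407 CPM. Atrial muscle was scarce in all libraries: Myl7 had 10, 19 and 16 UMIs in this class, Myl4 had 26, 38 and 38, and Sln and Bmp10 had 0. Map2k6, a kinase upstream of p38, was at 64.4, 30.2 and 29.7 CPM.

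The list of pyruvate dehydrogenase and its regulators was lower in 11 of 12 genes, with a median of -0.21 (-0.21 to -0.03 under the alternatives) near that of all genes, -0.13. Its members past 1.5-fold were Pdk1, at 32.0, 52.0 and 35.5 CPM, and Pdk4, both lower, where 6.29% of all genes were. Pdk4, the kinase that shuts pyruvate out of oxidation, had the lowest ratio of the genes named in this class, at 17.1 CPM in Prkag2-p.R299Q, 102 CPM in Myh6-R404Q and 37.3 CPM in WT. It was 5.95-fold (5.0 to 7.13) lower in Prkag2-p.R299Q, and WT lay between the mutants. Txnip, which restrains glucose uptake, was at 93.6, 323 and 83.9 CPM, 3.46-fold (3.19 to 3.74) lower than in Myh6-R404Q and close to WT. Ucp3, a mitochondrial carrier linked to fatty acid use, was at 26.9, 67.6 and 21.7 CPM. Cat, the peroxide-degrading catalase, was at 54.3, 122 and 73.0 CPM. Rp1, Cfap61 and Erc2, known from photoreceptors, cilia and synapses, were also lower, with 9.27, 16.3 and 20.5 CPM in Prkag2-p.R299Q against 51.9, 70.7 and 83.1 CPM in Myh6-R404Q.

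**Figure D2:**
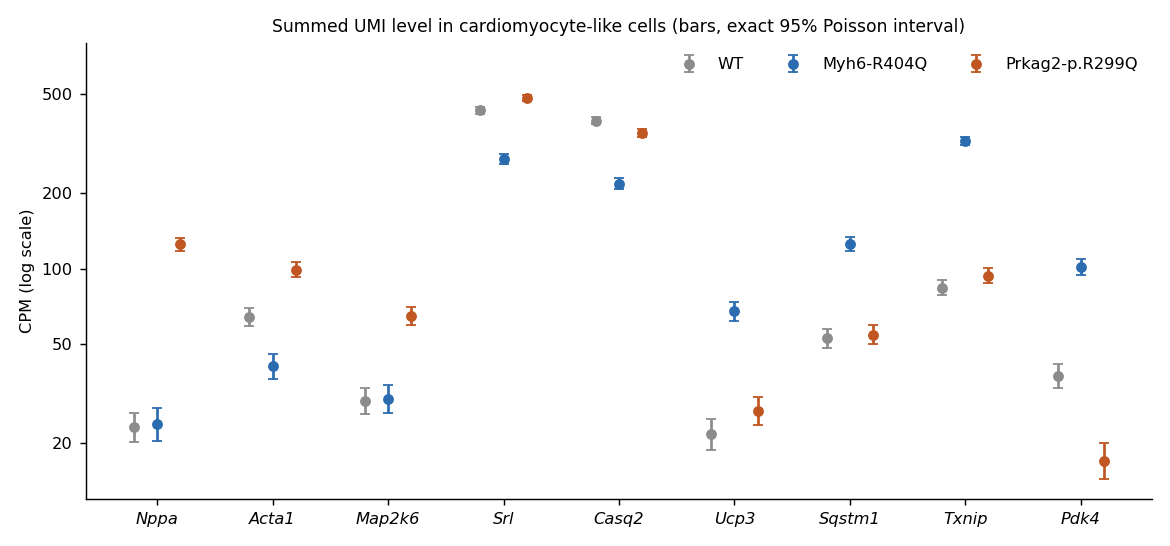
Summed UMI level (CPM, log scale) of 9 genes in cardiomyocyte-like cells of the WT, Myh6-R404Q and Prkag2-p.R299Q libraries, with exact 95% Poisson intervals. Nppa, Acta1 and Map2k6 are highest in Prkag2-p.R299Q, whereas Ucp3, Sqstm1, Txnip and Pdk4 are highest in Myh6-R404Q.

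Genes of fatty acid uptake and oxidation were lower in Prkag2-p.R299Q in 24 of 24 cases, with a median log2 ratio of -0.48 against -0.13 for all genes. Past 1.5-fold lower were 4 of them, where 6.29% of all genes were. Hadhb, a subunit of the mitochondrial trifunctional protein, stood at 230, 362 and 221 CPM, and Cpt1b, the gate of fatty acid entry into mitochondria, at 176, 257 and 187 CPM. Cd36, the fatty acid transporter, stood at 1122, 1556 and 1253 CPM. For these 3 genes the Prkag2-p.R299Q value was near WT and the Myh6-R404Q value above both. The nuclear-encoded respiratory chain was lower in 38 of 42 genes with a median of -0.23, which reached 0.01 under one of the alternatives. Autophagy and lysosome genes were lower in 18 of 19, median -0.35, with 6 past 1.5-fold. Among them Sqstm1, the cargo receptor p62, was at 54.5, 125 and 52.6 CPM, and Bnip3, a mitophagy receptor, at 47.1, 84.4 and 77.6 CPM.

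Glycogen genes had medians near 0, beside -0.13 for all genes. Of 9 measured synthesis genes 6 were higher and 0 were past 1.5-fold in either direction, with a median log2 ratio of 0.11. Gys1, muscle glycogen synthase, stood at 87.4 CPM in Prkag2-p.R299Q, 81.1 CPM in Myh6-R404Q and 115 CPM in WT, lower in both mutants than in WT. Ppp1r3a, which targets phosphatase to glycogen, stood at 416, 363 and 627 CPM, and Ppp1r3c, another such subunit, at 26.6, 23.6 and 22.2 CPM. On the breakdown side the median of 7 genes was -0.10. Past 1.5-fold were 0 higher and 2 lower, Phkg1 and Gaa, where 1.33% and 6.29% of all genes were. Pygm, muscle phosphorylase, was at 191, 210 and 199 CPM, and Phkg1, a subunit of its activating kinase, at 106, 168 and 84.8 CPM. AMPK subunits and upstream kinases were lower in 9 of 10, median -0.16, near the general level. Prkaa2, the main catalytic subunit of heart, was at 273, 269 and 286 CPM. Gaa, the lysosomal glucosidase, was at 14.3, 22.1 and 18.3 CPM. The glycolysis list had a median of -0.05 (-0.07 to 0.13 under the alternatives) over 19 genes, with 0 past 1.5-fold.

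Single genes of calcium handling differed, while their list was evenly split by count, with a median above that of all genes. Srl, a sarcoplasmic reticulum protein, stood at 481, 274 and 430 CPM, 1.76-fold (1.67 to 1.85) higher in Prkag2-p.R299Q. Casq2, the calcium store of the reticulum, stood at 349, 219 and 390 CPM. In both genes Myh6-R404Q was the library apart, below both others. The calcium list was split 8 against 8 with a median of 0.09 (-0.01 to 0.19 under the alternatives), beside -0.13 for all genes. Past 1.5-fold were Srl and Casq2 higher, where 1.33% of all genes were, and S100a1, a calcium-binding regulator, lower at 77.5, 132 and 79.7 CPM, where 6.29% were. By count the ion channel list had 11 higher and 5 lower with a median of 0.17.

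**Figure D3:**
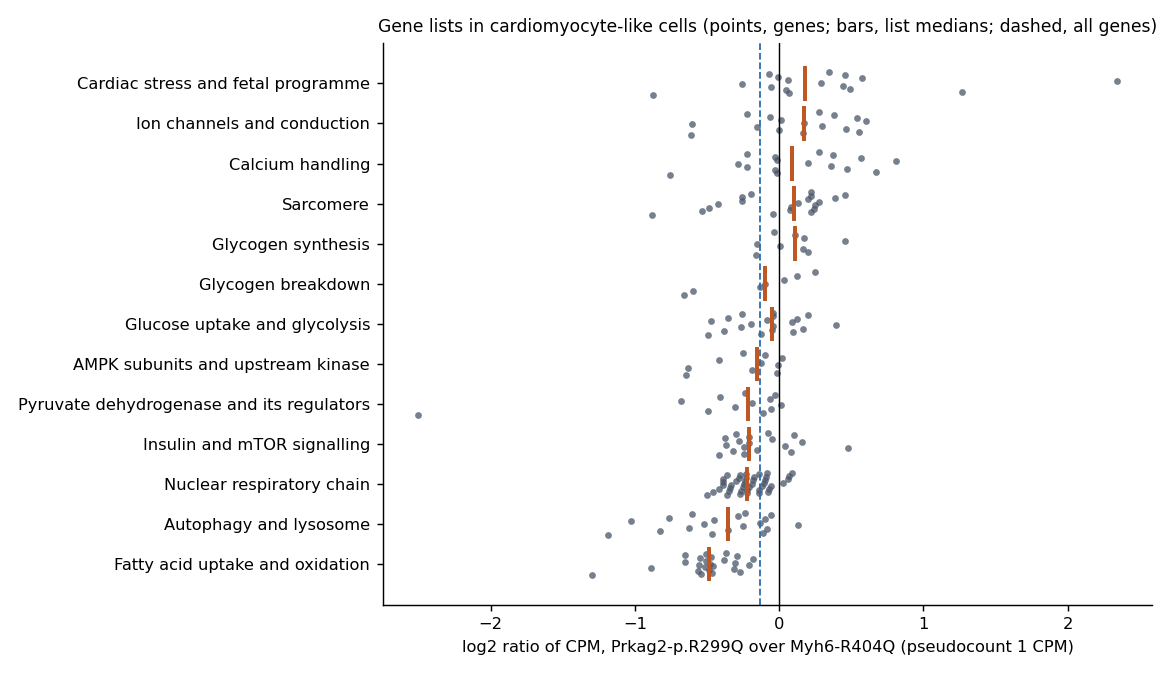
Log2 ratio of CPM (horizontal axis, Prkag2-p.R299Q over Myh6-R404Q, pseudocount 1 CPM) for the measured genes of 13 lists in cardiomyocyte-like cells, as points, with list medians as bars and the median of all genes, -0.13, dashed. The fatty acid list lies wholly below 0 and the stress list reaches 2.34 with Nppa.

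The class was made of 3 clusters held in like proportions by both mutants: cluster 2 with 74.3% and 74.9% of the cells, the shallow cluster 11, led by Nppa and Acta1, with 21.7% in each, and cluster 16 with 3.96% and 3.35%. Within cluster 2 Nppa stood at 55.9 against 10.6 CPM, within cluster 11 at 1557 against 261 CPM, and within cluster 16 at 168 against 10.2 CPM. The Nppa contrast was thus 5.28-fold, 5.97-fold and 16.5-fold, the last from 136 and 5 UMIs. Pdk4 was lower in all 3, at 14.2 against 101 CPM, 53.8 against 168 CPM and 28.5 against 63.1 CPM. The fatty acid list did not follow the same course throughout: 24 of 24 genes were lower in cluster 2 (median -0.54), 17 of 24 in cluster 16 (median -0.22) and 13 of 24 in cluster 11 (median -0.03). The respiratory chain list had medians of -0.35 in cluster 2 but 0.18 in cluster 11 and 0.27 in cluster 16. In the autophagy and lysosome list 18 of 19 genes were lower in cluster 2 (median -0.38). It had 12 of 19 lower in cluster 16 (median -0.15) and 10 of 19 in cluster 11 (median -0.02). Acta1 was 1.54-fold higher in cluster 2 and 4.15-fold in cluster 11. Fibroblast markers in the class summed to 342 CPM in Prkag2-p.R299Q and 495 CPM in Myh6-R404Q over 9 genes with 0 of them absent, and their part was not tested.

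Fibroblast-like cells differed in single matrix and complement genes, such as C7, Postn and Eln, while the medians of the complement and elastic fibre lists were near that of all genes. In this class 18 of 4446 genes (0.405%) were past 2-fold higher and 18 (0.405%) lower in Prkag2-p.R299Q. C7, a terminal complement component made by fibroblasts, stood at 677 CPM in Prkag2-p.R299Q, 150 CPM in Myh6-R404Q and 701 CPM in WT, 4.51-fold (4.19 to 4.86) higher, so that Myh6-R404Q stood apart. Postn, the matricellular protein periostin of activated fibroblasts, was at 107, 33.6 and 62.3 CPM, 3.17-fold (2.70 to 3.74) higher, with WT between the mutants. Podn, a small leucine-rich proteoglycan, was at 124, 47.4 and 69.3 CPM. Lower in Prkag2-p.R299Q were Eln, which encodes elastin, at 160, 377 and 181 CPM, and the elastic fibre gene Fbn2 at 37.8, 91.1 and 72.4 CPM. Col5a3, a minor fibrillar collagen, was at 134, 310 and 114 CPM, and Col4a6, a basement membrane collagen, at 61.9, 141 and 50.8 CPM. For Eln, Col5a3 and Col4a6 Prkag2-p.R299Q was near WT and Myh6-R404Q above both. The complement list had 5 genes higher and 7 lower with a median of -0.04, and the elastic fibre list 6 higher and 11 lower with a median of -0.06, beside -0.03 for all genes. The matricellular list had 8 higher and 4 lower with a median of 0.14.

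Among the main collagens Col1a1 stood at 229, 183 and 157 CPM, Col1a2 at 388, 403 and 357 CPM and Col3a1 at 1281, 1162 and 896 CPM. Over 13 fibrillar and network collagens 6 were higher and 7 lower, with a median of -0.02 (-0.04 to 0.09 under the alternatives). Of the collagens 1, Col5a3, was past 1.5-fold lower, where 3.42% of all genes were. Inflammatory mediators were higher in 9 of 11, median 0.28, with 4 past 1.5-fold where 2.14% of all genes were. They were led by the chemokines Ccl11, at 25.2, 8.16 and 13.2 CPM, and Ccl2, at 25.5, 11.4 and 36.0 CPM. Zbtb16 and Fkbp5, known targets of glucocorticoids, stood at 1567, 626 and 898 CPM and at 868, 425 and 506 CPM. Other members of that list went the other way or were near equal, such as Mt1, a metallothionein, at 42.7, 49.0 and 121 CPM, and the list median was -0.05, or 0.65 over the members at 50 CPM or more, so its direction depends on which members are counted. The Zbtb16 contrast was 2.42-fold, 2.36-fold and 2.74-fold within the 3 fibroblast clusters described next.

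The fibroblast class differed in its makeup. Cluster 0, led by Col8a1, held 51.5% of it in Prkag2-p.R299Q and 70.1% in Myh6-R404Q, cluster 5, led by Gfpt2 and Pi16 and with C7 among its leading genes, 27% and 14.7%, and cluster 6, with Fbn2 among its leading genes, 21.4% and 15.2%. C7 was higher in Prkag2-p.R299Q within each of them, at 508 against 110 CPM, 963 against 345 CPM and 625 against 88.0 CPM. Postn was 4.82-fold (3.99 to 5.85) higher within cluster 0, 1.48-fold in cluster 5, and 1.47-fold in cluster 6, where the interval of 0.592 to 3.96 included equality. Eln was lower in all 3, at 132 against 326, 123 against 251 and 283 against 763 CPM. Mesothelial markers in the class, 8 genes with 0 of them absent, summed to 69.6 CPM in Prkag2-p.R299Q and 145 CPM in Myh6-R404Q, and smooth muscle markers to 32.8 and 29.6 CPM. Whether surface cell RNA has a part in the lower genes was not tested.

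Fibroblast-like cells also held the widest contrast in clock genes among the 8 classes. The daily clock is a loop in which Arntl with Clock or Npas2 drives its own repressors through E-boxes, and the 2 arms peak at opposite times of day. Npas2 stood at 24.2 CPM in Prkag2-p.R299Q, 155 CPM in Myh6-R404Q and 52.4 CPM in WT, 6.40-fold (5.36 to 7.70) lower. Arntl stood at 15, 89.6 and 37.7 CPM, 5.98-fold (4.77 to 7.59) lower. For both activators WT lay between the mutants. The activator list also holds Clock and, grouped by phase and not as activators, Cry1 and Nfil3, and it had a smaller contrast. Its median log2 ratio was -1.53 (-2.50 to -1.09 under the alternatives), beside -2.63 for Npas2 and -2.50 for Arntl. Of the opposite arm 11 of 11 measured genes were higher in Prkag2-p.R299Q, 7 of them past 1.5-fold, where 2.14% of all genes were, with a median log2 ratio of 0.70. Per3, a period repressor, stood at 109, 46.1 and 71.9 CPM, and Dbp, an output factor that binds D-boxes, at 84.0, 38.4 and 55.2 CPM. Here too WT was in the middle. Tef, a relative of Dbp, was at 203 against 102 CPM, and Bhlhe41, an E-box repressor, at 48.0 against 23.3 CPM. The contrast stood in every fibroblast cluster: Npas2 was at 25.3 against 141 CPM in cluster 0, 22.4 against 159 CPM in cluster 5 and 24.3 against 210 CPM in cluster 6. The hour of collection is not given in the sources used here and cannot be told apart from genotype.

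The promoters of 3 of these genes are shown. All measured members of the repressor and output list were on the same side, and these windows hold elements of the loop. They are the RefSeq windows on GRCm38.p6 from 250 bases before to 50 after the start, on the gene's strand, with matches in capitals: CACGTG for an E-box and TTATGTAA for a D-box, both strands searched.
Per3, chr4:151044616-151044915, minus strand: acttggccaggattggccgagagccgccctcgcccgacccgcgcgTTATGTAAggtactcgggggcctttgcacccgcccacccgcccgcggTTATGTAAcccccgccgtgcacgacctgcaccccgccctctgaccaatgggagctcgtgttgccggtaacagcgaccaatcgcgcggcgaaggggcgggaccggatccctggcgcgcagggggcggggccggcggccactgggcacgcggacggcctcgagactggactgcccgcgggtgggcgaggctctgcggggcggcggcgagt
Tef, chr15:81802423-81802722, plus strand: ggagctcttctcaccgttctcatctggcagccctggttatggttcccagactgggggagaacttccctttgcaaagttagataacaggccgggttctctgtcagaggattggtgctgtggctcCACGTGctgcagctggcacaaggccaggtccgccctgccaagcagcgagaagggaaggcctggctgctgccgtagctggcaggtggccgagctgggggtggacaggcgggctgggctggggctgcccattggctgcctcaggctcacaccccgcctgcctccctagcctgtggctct
Bhlhe41, chr6:145865371-145865670, minus strand: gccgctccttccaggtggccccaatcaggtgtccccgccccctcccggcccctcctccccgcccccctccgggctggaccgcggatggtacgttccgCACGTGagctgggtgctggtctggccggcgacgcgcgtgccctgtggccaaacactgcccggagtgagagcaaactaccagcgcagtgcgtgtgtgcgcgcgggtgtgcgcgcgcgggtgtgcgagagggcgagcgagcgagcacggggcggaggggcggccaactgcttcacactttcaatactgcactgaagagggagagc
Per3 has 2 D-boxes, a motif in 0.938% of the 32851 RefSeq windows, and Tef and Bhlhe41 have 1 E-box each, a motif in 7.15% of them. Of the 12 genes in the repressor and output list 10 had a window, of which 4 held an E-box and 1 a D-box. A match is a description of the letters and not a bound site.

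The median of the repressor and output list was smaller in the other classes. These differences between classes were not tested. The repressor and output list had a median log2 ratio of 0.40 in pericyte-like, 0.39 in macrophage-like, 0.25 in mesothelial-like, 0.23 in endothelial-like and 0.23 in endocardial-like cells. In cardiomyocyte-like cells it was 0.05 and in lymphatic endothelial-like cells -0.03 (-0.04 to 0.15 under the alternatives). Single members were higher there all the same: Dbp stood at 65.8 against 29.3 CPM, 2.24-fold (1.26 to 4.1), and Per3 at 82.7 against 44.0 CPM, 1.88-fold (1.16 to 3.10), near the fibroblast ratios. Npas2 in cardiomyocyte-like cells stood at 37.1 against 50 CPM, Per3 at 92.8 against 83.4 CPM and Dbp at 80.8 against 79.1 CPM. Arntl was lower in Prkag2-p.R299Q in macrophage-like cells, at 80.4 against 112 CPM, and in endothelial-like cells, at 21.3 against 43.0 CPM. In endocardial-like cells, where it had 7 and 9 UMIs, its ratio of 1.87 (0.592 to 5.64) included equality. The activator list had medians of -0.71 in mesothelial-like, -0.21 in pericyte-like, -0.08 in endothelial-like and -0.04 in cardiomyocyte-like cells. Its median was 0.05 in lymphatic endothelial-like and 0.81 (0.30 to 0.82 under the alternatives) in endocardial-like cells. The endocardial median was the value of Cry1, which is not an activator, and Clock stood at -0.27 there.

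**Figure D4:**
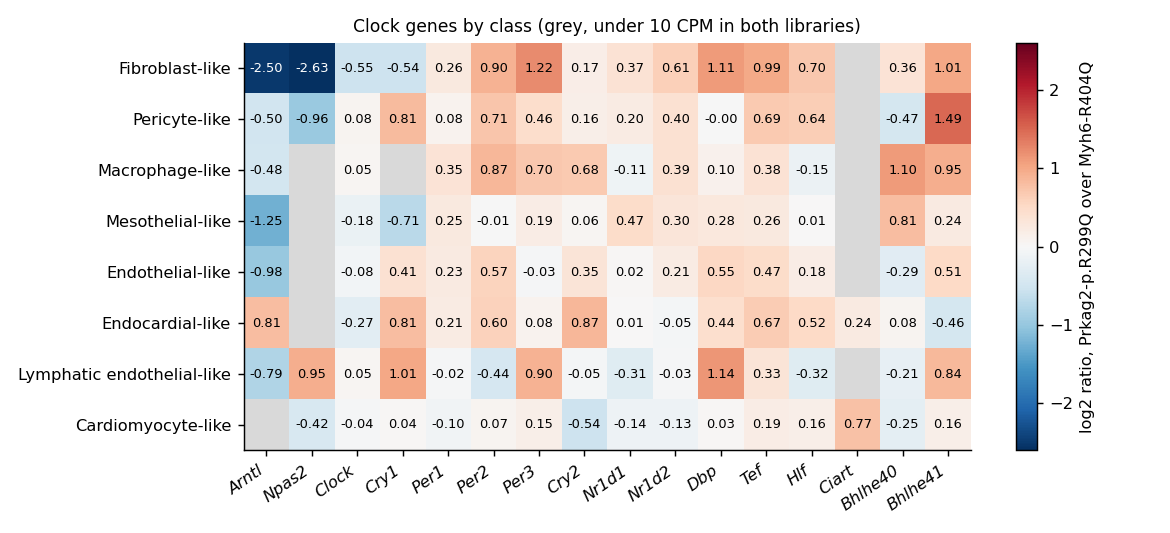
Log2 ratio of CPM (Prkag2-p.R299Q over Myh6-R404Q) of 16 clock genes in the 8 compared classes, with the value in each square and grey where neither library reached 10 CPM. The fibroblast-like row runs from -2.63 for Npas2 to 1.22 for Per3, and the cardiomyocyte-like row stays between -0.54 and 0.77.

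Macrophage-like cells of Prkag2-p.R299Q had more RNA of resident macrophage genes and less of antigen presentation genes than those of Myh6-R404Q. Past 2-fold were 15 of 4461 genes (0.336%) higher and 30 (0.672%) lower. H2-Aa, a class II chain, stood at 57.7 CPM in Prkag2-p.R299Q, 131 CPM in Myh6-R404Q and 82.7 CPM in WT, 2.27-fold (1.79 to 2.90) lower. Ciita, the class II transactivator, stood at 57.1, 129 and 71.7 CPM, and the invariant chain Cd74 at 112, 221 and 136 CPM. Of 10 measured class II genes 8 were lower, 5 past 1.5-fold where 9.1% of all genes were, with a median log2 ratio of -0.74. Cd86 and Cd80, costimulatory ligands of the same list, were at 302 against 301 CPM and 68.8 against 60.9 CPM. B cell markers in the class summed to 1043 CPM in Prkag2-p.R299Q and 791 CPM in Myh6-R404Q over 7 genes, with Cd79a at 1 and 2 UMIs. Those of mixed myeloid cells summed to 100 and 120 CPM over 8 genes, with Ly6c2 at 0 in both and Cd209a at 0 in Myh6-R404Q. The class II genes past 2-fold or at it stood in macrophage-like cells between 0.229 and 0.317 of their level in the class where they were highest. With each cell thinned to 1000 UMIs Ciita, H2-Ab1 and H2-Eb1 no longer met the 2-fold rule, with log2 ratios (pseudocount 1 CPM) of -0.96, -0.90 and -0.99. Class I presentation genes were lower in 9 of 9 cases with a median of -0.26, such as H2-K1, a class I heavy chain, at 228, 314 and 242 CPM.

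Resident genes were higher in 14 of 16, median 0.30, with 6 past 1.5-fold where 5.39% of all genes were. Lyve1, a hyaluronan receptor of tissue macrophages, stood at 256, 101 and 179 CPM, 2.53-fold (2.11 to 3.05) higher in Prkag2-p.R299Q. F13a1, a coagulation factor subunit, was at 5589, 3562 and 6073 CPM, Timd4, a receptor for dying cells, at 105, 65.2 and 80.4 CPM, and Cbr2 at 286, 171 and 210 CPM. Igf1, a growth factor of the same list, was lower, at 234, 352 and 227 CPM. Among genes of recruited cells Ms4a7 stood at 138, 265 and 116 CPM, Cx3cr1, the fractalkine receptor, at 54.9, 98.1 and 36.8 CPM and Ccr2, the monocyte receptor, at 22.8, 34.8 and 47.8 CPM. That list was split 5 against 5, its median moving between -0.39 and 0.24 under the alternatives. Slc40a1, the iron exporter ferroportin, was lower in Prkag2-p.R299Q at 32.2, 81.4 and 34.9 CPM. Tnf, an inflammatory cytokine, had 56 UMIs against 18, a ratio of 2.78 (1.61 to 5.02), and Il1b had 9 against 23.

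**Figure D5:**
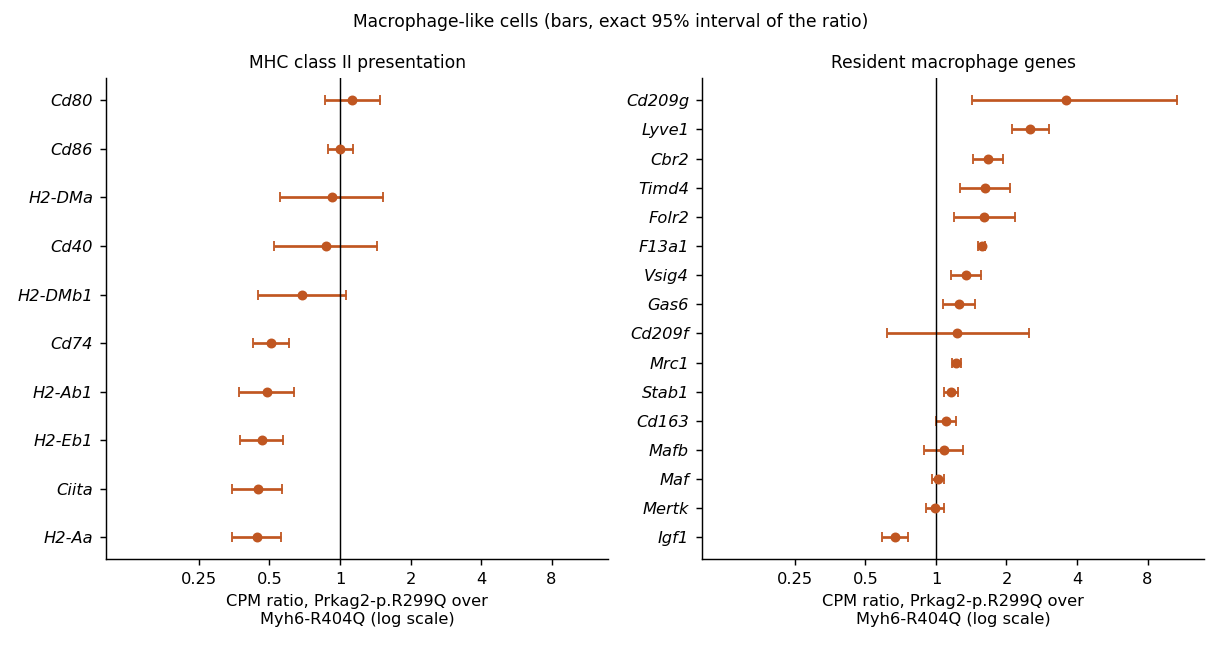
CPM ratio in macrophage-like cells (Prkag2-p.R299Q over Myh6-R404Q, log scale) with exact 95% intervals for the measured genes of the class II list and of the resident macrophage list. H2-Aa, Ciita, H2-Eb1, H2-Ab1 and Cd74 lie left of equality, and Lyve1 and F13a1 lie right of it.

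Chaperones formed another macrophage contrast. Hsph1, a large heat shock protein that recharges Hsp70, stood at 77.7 CPM in Prkag2-p.R299Q, 20.5 CPM in Myh6-R404Q and 98.8 CPM in WT, 3.79-fold (2.58 to 5.72) higher. Dnaja1, an Hsp40 co-chaperone, stood at 216, 98.1 and 212 CPM. In both cases Myh6-R404Q was the library apart. The list had 13 of 17 genes higher and 7 past 1.5-fold, where 5.39% of all genes were, with a median of 0.33. The Hsph1 window is shown because it holds a heat shock element, the binding motif of heat shock factors searched on both strands, present in 0.603% of all windows and in 3 of the 15 windows of this list. Capitals mark it and 1 E-box (CACGTG).
Hsph1, chr5:149636287-149636586, minus strand: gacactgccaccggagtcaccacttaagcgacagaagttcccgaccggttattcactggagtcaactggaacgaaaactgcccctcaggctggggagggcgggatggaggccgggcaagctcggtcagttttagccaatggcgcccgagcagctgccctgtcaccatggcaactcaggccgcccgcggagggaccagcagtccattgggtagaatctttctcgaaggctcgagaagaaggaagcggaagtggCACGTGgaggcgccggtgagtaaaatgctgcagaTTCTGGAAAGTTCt
The same gene was at 69.1, 38.9 and 94.3 CPM in fibroblast-like cells, where the list median was 0.17, and the list median in cardiomyocyte-like cells was -0.06 (-0.10 to 0.13 under the alternatives).

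In mesothelial-like cells complement and immediate early genes were higher in Prkag2-p.R299Q, and single genes such as Has1 and Enpp2 differed by more. Past 2-fold were 15 of 4407 genes (0.340%) higher and 22 (0.499%) lower in Prkag2-p.R299Q. Has1, a hyaluronan synthase, stood at 156, 47.9 and 99.2 CPM, 3.24-fold (2.69 to 3.92) higher, and Gpx3, a secreted glutathione peroxidase, at 465, 204 and 196 CPM. Enpp2, which makes lysophosphatidic acid, stood at 36.0, 125 and 24.2 CPM, and Pex5l at 5.74, 55.4 and 11.2 CPM. Complement genes were higher in 12 of 13, median 0.29, with 3 past 1.5-fold where 3.85% of all genes were, and 0 past 1.5-fold lower, where 5.28% were. C3, the central component, stood at 4183, 2580 and 1191 CPM, so that both mutants were above WT. Class I presentation genes were higher in 7 of 9, median 0.36 (0.19 to 0.43 under the alternatives). Immediate early genes were higher in 11 of 14, median 0.54 (0.24 to 0.56 under the alternatives). Glucocorticoid-responsive genes were higher in 11 of 12, median 0.30: Fkbp5 stood at 507, 315 and 438 CPM and Tat, a tyrosine-degrading enzyme, at 38.6, 10.8 and 18.0 CPM. Of 19 identity genes 16 were higher, with a median of 0.13: Wt1, the transcription factor of this layer, was at 747, 737 and 800 CPM and Msln at 611, 478 and 327 CPM. A shallow cluster made up 6.39% of the class in Prkag2-p.R299Q and 4.04% in Myh6-R404Q, and fibroblast markers in the class summed to 3062 and 4255 CPM over 9 genes with 0 absent; their part was not tested.

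In the chamber and vessel lining the counts of genes past 2-fold were small, with 10 (0.227%) higher and 16 (0.363%) lower of 4406 in endocardial-like cells and 4 (0.0918%) higher and 7 (0.161%) lower of 4357 in endothelial-like cells. Kcnc2, a voltage-gated potassium channel, stood at 20.9 CPM in endocardial-like cells of Prkag2-p.R299Q, 176 CPM in Myh6-R404Q and 135 CPM in WT, from 12 and 244 UMIs in the mutants, so that Prkag2-p.R299Q stood apart. Sytl5, a vesicle-trafficking protein, stood at 153, 37.6 and 154 CPM, and Tll1, a metalloprotease, at 81.7, 240 and 82.7 CPM, with Myh6-R404Q apart in both. Fgf14, an intracellular channel regulator, stood at 2622, 1266 and 2543 CPM, and Nrg1, the neuregulin that signals to muscle, at 4363, 2372 and 3738 CPM, 1.84-fold (1.75 to 1.94) higher. In Fgf14 and Nrg1 Myh6-R404Q was below both other libraries. The endocardial signalling list had 10 genes higher and 5 lower with a median of 0.08 (-0.02 to 0.13 under the alternatives). Past 1.5-fold were 1 higher and 3 lower, where 9.25% and 14% of all genes were. Npr3, the natriuretic peptide clearance receptor of the same list, stood at 2566 against 2305 CPM, while Inhba, an activin subunit, had 8 UMIs against 47 and Bmp4, a growth factor, 1 against 15. Cldn5, the tight junction claudin of endothelium, stood at 50.2, 121 and 69.3 CPM in endothelial-like cells, 2.40-fold lower in Prkag2-p.R299Q. Pdk4 was lower there too, at 14.7, 50.6 and 39.4 CPM. Capillary lipid genes had a median of -0.13 (up to 0.00 under the alternatives) over 13 genes with 0 past 1.5-fold, where 3.46% of all genes were past it higher and 4.11% lower, among them Fabp4, a fatty acid binding protein, at 2555 against 2013 CPM.

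Lymphatic endothelial-like and pericyte-like cells rest on fewer UMIs. In lymphatic endothelial-like cells 12 of 4672 genes (0.257%) were past 2-fold higher and 8 (0.171%) lower in Prkag2-p.R299Q. Tnc, the matricellular protein tenascin C, stood at 86.4 CPM in Prkag2-p.R299Q, 20.5 CPM in Myh6-R404Q and 41.2 CPM in WT, from 46 and 14 UMIs in the mutants. Hoxb3os, an antisense RNA of the Hoxb cluster, had 46 UMIs against 3, a ratio of 19.7 with a counting interval of 6.32 to 98.8. The lineage genes were split 8 against 8 with a median of 0.03, with 0 past 1.5-fold higher and 2 lower, where 10.6% and 15.7% of all genes were: Prox1, the master regulator of lymphatic fate, was at 1048 against 1282 CPM and Reln at 2803 against 2183 CPM. Class I presentation genes were lower in 8 of 9 with a median of -0.37, against a higher median of 0.36 in mesothelial-like cells, a difference between classes that was not tested.

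In pericyte-like cells 11 of 4445 genes (0.247%) were higher and 14 (0.315%) lower past 2-fold. Contractile and channel genes were near equal, with a median of -0.02 over 17 and 2 past 1.5-fold higher and 0 lower, where 10.4% and 12.5% of all genes were: Abcc9, a subunit of the vascular potassium channel, stood at 3961 against 3816 CPM and Rgs5 at 1331 against 1444 CPM. Acta2, smooth muscle actin, was at 28.5 against 12.3 CPM from 21 and 10 UMIs. Mthfd1l, a mitochondrial folate enzyme, stood at 67.8, 21.0 and 42.2 CPM, from 50 and 17 UMIs in the mutants. In fibroblast-like cells it stood at 69.1, 21.9 and 59.8 CPM, from 406 and 129 UMIs, so it was higher in Prkag2-p.R299Q in both classes. With each cell thinned to 1000 UMIs the pericyte value no longer met the 2-fold rule.

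Prkag2 itself was not highest in muscle. Its level was 860 CPM in lymphatic endothelial-like cells of Prkag2-p.R299Q, 750 CPM in Myh6-R404Q and 739 CPM in WT, and 371, 278 and 358 CPM in macrophage-like cells. The macrophage ratio between the mutants was 1.34 (1.18 to 1.51), with WT near Prkag2-p.R299Q. In fibroblast-like cells it stood at 114, 119 and 112 CPM, in endocardial-like cells at 137, 147 and 147 CPM, and in mesothelial-like cells at 73.0, 86.8 and 86.8 CPM. Endothelial-like cells had 70.9, 66.2 and 71.5 CPM, a level like that of muscle, and pericyte-like cells had 17 and 31 UMIs in the mutants. Prkaa2 ran the other way across classes, at 273 against 269 CPM in muscle and 15 against 18 CPM in macrophage-like cells. The AMPK list had median log2 ratios from -0.27 in pericyte-like to 0.17 in lymphatic endothelial-like cells.

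Muscle RNA was found in the other classes and differed between the libraries. Sarcomere genes took 0.597% of fibroblast UMIs in Prkag2-p.R299Q and 0.935% in Myh6-R404Q, 0.662% and 1.10% in endocardial-like cells, 0.953% and 1.24% in macrophage-like cells, 1.42% and 2.18% in pericyte-like cells, and 2.53% and 2.85% in endothelial-like cells. In cardiomyocyte-like cells they took 5.84% and 5.54%. Past 2-fold lower in Prkag2-p.R299Q were Myom2, an M-band protein, in 5 of 8 classes, and Idh2, a mitochondrial isocitrate dehydrogenase, in 4 of 8. In muscle itself Myom2 stood at 243, 448 and 149 CPM and Idh2 at 312, 500 and 293 CPM. Acta1 was past 2-fold higher in 4 of 8 classes. With each cell thinned to 1000 UMIs it no longer met the 2-fold rule in pericyte-like and lymphatic endothelial-like cells. Nppa was at 92.8 against 23.2 CPM in endothelial-like cells. Between the mutants Acta1 and Nppa carried the direction they had in cardiomyocyte-like cells. Acta1 stood at 129, 55.4 and 133 CPM in endothelial-like cells, above its 99.2, 40.7 and 64.0 CPM in cardiomyocyte-like cells. It was at 88.1, 30.9 and 106 CPM in pericyte-like and 69.5, 24.9 and 90.8 CPM in lymphatic endothelial-like cells. In each of these classes Myh6-R404Q was the lowest library. Pdk4 in WT stood at 39.4 CPM in endothelial-like and 37.3 CPM in cardiomyocyte-like cells. The part of free muscle RNA in the values of Myom2, Idh2, Acta1, Nppa and Pdk4 outside muscle was not tested. No gene was past 2-fold in the same direction in more than 5 of the 8 classes.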

How the data were processed

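Cells were captured from dissociated hearts with a 10x Genomics 3-prime kit, per the labels' protocols. The submitters' processing notes name mm10 and Cell Ranger 7.0.1. Matrices as deposited hold raw UMI counts for 32285 genes, which the authors did not normalize; no source used here states whether intronic reads were counted. Barcodes needed 500 UMIs, 300 genes and at most 20% mitochondrial UMIs (7951, 12661 and 18033 passed in Prkag2-p.R299Q, Myh6-R404Q and WT). Scrublet in scanpy 1.11.5 removed 1112 (14.0%), 2163 (17.1%) and 3182 (17.6%) as doublets, above the expected 6.36%, 10.1% and 14.4%. Median UMIs of the kept cells were 2347, 1850 and 1416. A class with 0 cells could still make up 0.0439%, 0.0286% and 0.0202% of them. Free RNA was not removed.

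Counts scaled to 10000 per cell, 2000 variable genes, 30 principal components and 20 neighbours were clustered with leidenalg 0.10.2 at resolution 0.8, with no correction between libraries. Clusters were named from marker lists (score of at least 0.5 log2 units, at least 3 markers detected in 5% of cells), so the names are rebuilt and not the authors'. UMIs were summed per class and library as CPM of the class total. Cells are not replicates, so no test was run: ratios have exact conditional binomial intervals (scipy 1.17.1), shares exact binomial ones and share ratios a log-normal one. Lists took members at 10 CPM or more with a pseudocount of 1 CPM, and their 1.5-fold counts are on that scale.

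Genes named were the 5 highest and 5 lowest past 2-fold per class, provided they reached 1/5 of the level in their highest class (mitochondrial, ribosomal, hemoglobin, immunoglobulin, predicted and sex-linked RNAs left out), the 4 most abundant and any past 2-fold in each list, and a fixed set (Myh6, Prkag2, clock genes and, in muscle, metabolic and stress genes); a subset is printed. Other list members, Malat1 and the atrial and marker genes were named after their values were seen. Members and lists were chosen with earlier results of these data known. Alternatives changed the UMI minimum, doublets, resolution, denominator, depth per cell, scaling, CPM minimum, pseudocount and cluster weights. Promoters and starts came from RefSeq, gene models from GENCODE vM21.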

Additional observations from a re-analysis of the deposited data

Results flagged for a closer look

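Map2k6, the kinase upstream of p38, was past 2-fold in opposite directions in 2 classes. It stood at 64.4 CPM in Prkag2-p.R299Q and 30.2 CPM in Myh6-R404Q in cardiomyocyte-like cells, a ratio of 2.14 (1.83 to 2.5), and at 43.3 and 88.2 CPM in macrophage-like cells, a ratio of 0.491 (0.367 to 0.651). WT was at 29.7 and 42.7 CPM, near the lower mutant in each class. With 1 library per genotype the difference between the classes was not tested.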

How the results depend on the processing

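No paired analysis was possible because each genotype has 1 library. On the log2 scale the share ratio of cardiomyocyte-like cells moved to 0.30 with doublets kept, that of endothelial-like cells to -0.31 and of mesothelial-like cells to -0.80 at a minimum of 1000 UMIs, and that of fibroblast-like cells to 0.32 with cardiomyocytes left out of the denominator. No share ratio changed direction for the 8 compared classes. With a minimum of 10 CPM in place of 50 the genes past 2-fold higher and lower came to 20 and 131 in cardiomyocyte-like, 35 and 34 in endocardial-like, 12 and 24 in endothelial-like, 39 and 64 in fibroblast-like, 37 and 33 in lymphatic endothelial-like, 35 and 66 in macrophage-like, 38 and 55 in mesothelial-like and 32 and 28 in pericyte-like cells. Thinning to 1000 UMIs turned the endocardial median of the glucocorticoid and metallothionein list from 0.35 to -0.30; the cause was not tested. The share of higher genes among those past 2-fold went from 38.5% to 55.6% in endocardial-like and from 44.0% to 54.5% in pericyte-like cells on thinning. Of 779 recomputed list medians 753 stayed within 1.2-fold of the main value, 25 moved further and 1 of those at least 1.2-fold from 0 changed sign, the endocardial one above. By sign alone 73 of the 779 changed, in 43 of 113 list medians, among them the cardiomyocyte respiratory chain; the cause was not tested. Calls lost on thinning included Kazn, Sh3bgr, Dbp and Fbn2, and those lost on equal cluster weights Sqstm1 and Dok6. Classes of few UMIs, such as lymphatic endothelial-like cells with 532241 in Prkag2-p.R299Q, resolve only large differences.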

Other observations

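Immune classes too small for a comparison gene by gene were present in both mutant libraries. B cell-like cells numbered 38 in Prkag2-p.R299Q, 73 in Myh6-R404Q and 54 in WT, T and NK-like cells 43, 86 and 117, and mixed myeloid-like cells, led by Alcam and Ccr2, 58, 114 and 100. Their shares in Prkag2-p.R299Q were 0.556%, 0.629% and 0.848% of kept cells against 0.695%, 0.819% and 1.09% in Myh6-R404Q. Schwann-like cells numbered 10 and 19 against 97 in WT.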
